A study of Mus musculus with 24 samples.

Results

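Mouse C2C12 cells, a myoblast line derived from the C3H strain, were transfected with siRNAs against Tead1 and Tead4 (siTead1/4) or with a control siRNA (siControl, siLuc in the labels), and their RNA was sequenced after 6 days of differentiation. The members were chosen by these labels, and all genes were described. These are 4 libraries of the 24 in the series, 2 biological replicates for each siRNA. The siRNAs were transfected 24 hours before the medium was changed, so day 6 is a late point after a transient knockdown in an unselected population. The other libraries used here hold the same cells at days 0 and 3, and primary myoblasts (PMs) with the same siRNAs, from C57/B6 mice a few weeks old, 4 libraries for each time and cell type. PMs are described at day 6, and their libraries of days 0 and 3 entered only the fits of all 24 libraries. The 4 day 6 libraries held between 30356060 and 51424994 counted reads, within the range of 25453830 to 52784510 of the 12 C2C12 libraries. In a principal component analysis of the 12 libraries, the siTead1/4 replicates at day 6 lay apart on the second component (6.82% of the variance), replicate 1 at 32.8, toward the siTead1/4 libraries at day 3 (48.8 and 44.0), and replicate 2 at -7.44, toward the siControl libraries at day 6 (-21.6 and -39.5). Muscle markers were high in all 4 libraries: Des, the intermediate filament of muscle, stood at 4401 and 4629 CPM, read counts scaled to the library total with TMM factors, in the siControl libraries and at 1935 and 3819 in the siTead1/4 libraries.

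Tead proteins bind the DNA element known as MCAT (M-CAT), which lies in the promoters of many muscle genes. They need cofactors such as Yap and Taz (the product of Wwtr1) to activate transcription. The Vestigial-like (Vgll) proteins are also Tead cofactors. The Hippo kinases hold Yap and Taz out of the nucleus. In myoblasts leaving the cell cycle, Tead factors act beside Myod1, Myog and Mef2 proteins on the genes of the contractile apparatus, and in dividing cells the Yap and Tead pair is best known for driving growth genes such as Ctgf.

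The MCAT element appears upstream of an annotated start of each of the neighbouring myosin heavy chain genes Myh6 and Myh7, whose levels at day 6 are described next. They are shown because one of them was called in the test and the other had the larger RNA pool. The sequences are the 250 bases before the annotated start, 5′ to 3′ on the gene's strand, from RefSeq on build GRCm38.p6, at chr14:54966608-54966857 for Myh6 and chr14:54994627-54994876 for Myh7, both on the minus strand. Capitals mark the element, searched as CATTCCA or CATTCCT on both strands, and both matches are on the strand opposite to the gene.
Myh6: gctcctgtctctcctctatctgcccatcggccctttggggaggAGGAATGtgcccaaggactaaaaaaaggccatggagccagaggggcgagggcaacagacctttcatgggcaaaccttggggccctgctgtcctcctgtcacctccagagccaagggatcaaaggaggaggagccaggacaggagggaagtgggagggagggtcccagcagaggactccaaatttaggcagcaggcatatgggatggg
Myh7: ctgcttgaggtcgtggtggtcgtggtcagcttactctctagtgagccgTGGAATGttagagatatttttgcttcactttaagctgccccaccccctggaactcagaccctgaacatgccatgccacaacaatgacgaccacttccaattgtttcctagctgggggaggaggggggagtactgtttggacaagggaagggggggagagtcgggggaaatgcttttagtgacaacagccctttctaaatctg

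The match begins 207 bases before the start of Myh6 and 202 bases before the start of Myh7. A window at another annotated start of Myh7 (chr14:54994500-54994799) holds no match. Over windows of 300 bases, from 250 before to 50 after a start, 9.35% of all 32851 mouse promoters hold the element, as do those of 10.6% of genes. Among the 5 genes called down at day 6, all with a window, 1 holds it (Myh6), and neither of the 2 genes called up does. Among the longer list of genes called by DESeq2, described further on, 9 of the 85 genes called down that have a window hold it (10.6%), and 2 of the 28 called up (7.14%). The shares among the DESeq2 calls lay near the 10.6% of all genes, and a match is a description of letters in a window.

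Neither targeted gene was called at day 6. Tead4, which rises in differentiating myoblasts, stood at 89 and 153.1 CPM in siControl cells and at 40.7 and 58.9 in siTead1/4 cells. The groups did not overlap, and the log2 fold change of -1.28 ± 0.34 (SE) did not pass the test (adjusted p = 0.318, edgeR). Tead1 stood at 78.1 and 139.4 CPM in siControl cells and at 72.5 and 79.4 in siTead1/4 cells, so the groups overlapped (log2 fold change -0.52 ± 0.63, edgeR adjusted p = 0.945). A lower level of Tead1 was thus not detectable in the day 6 libraries.

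The Tead genes that were not targeted, and the cofactors, were not called either. Tead2 stood at 79.3 and 69.7 CPM in siControl cells against 48.2 and 59.0 in siTead1/4 cells, and Tead3 at 49.6 and 42.0 against 56.1 and 69.7. Yap1 lay at 96 and 114.7 CPM in siControl cells and at 133.5 and 131.9 in siTead1/4 cells. Wwtr1, at 376.3 and 444.6 against 365.7 and 410.1 CPM, had groups that overlapped. Vgll2, a Tead cofactor of skeletal muscle, stood at 12.9 and 7.35 CPM in siControl cells and at 17.4 and 37.1 in siTead1/4 cells, with no overlap. Vgll3 (85 and 95.4 against 120.0 and 103.2 CPM) was also higher in both siTead1/4 libraries, and Vgll4 (47.7 and 67.2 against 66.6 and 90.5 CPM) overlapped. None of the 21 tested cofactors and Hippo kinases was called. Their median log2 fold change was 0.12. Of the 21, 9 lay higher and 1 lower in both siTead1/4 libraries, against 19.1% and 20.5% of all genes tested. The Hippo pathway genes Mob1a and Amotl2 were among the 9.

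Of 15303 genes tested, 7 were called, that is, had an adjusted p under 0.05 and a log2 fold change beyond 1 in either direction (edgeR quasi-likelihood test). Of these, 2 were called up, 0.0131% of the genes tested, and 5 were called down, 0.0327%. Both siTead1/4 libraries lay under both siControl libraries for 20.5% of all tested genes and over them for 19.1%, so groups that do not overlap were common without a call. A total of 1064 genes had an unadjusted p under 0.05, 380 of them higher and 684 lower in siTead1/4 cells.

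Myosin chains account for 2 of the genes called down. Myl2, the regulatory light chain of slow skeletal and ventricular muscle (mm9, chr5:122550960-122563481, plus strand), stood at 43.1 and 29.5 CPM in siControl cells. It stood at 0.118 and 0.64 CPM in siTead1/4 cells, from 4 and 28 reads. Both siTead1/4 libraries were at a small fraction of either control, 1.04% on average. The log2 fold change was -6.51 ± 0.65 (SE, n = 2 libraries each, edgeR adjusted p = 0.0394). Myh6, the alpha cardiac myosin heavy chain (chr14:55560758-55585764, minus strand), stood at 41.1 and 52.0 CPM in siControl cells and at 8.11 and 8.14 in siTead1/4 cells. The siTead1/4 libraries were nearly equal, at 17.5% of the control mean, with a log2 fold change of -2.52 ± 0.30 (edgeR adjusted p = 0.0394). Myh6 and Myh7 are near-identical paralogues, so reads that match both could have been assigned wrongly or left out in counting.

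The other 3 genes called down act outside the sarcomere. Fxyd6, of the family of small proteins that regulate the sodium-potassium pump (chr9:45178268-45204241, plus strand), stood at 72.7 and 70.1 CPM in siControl cells and at 1.33 and 2.83 in siTead1/4 cells. Its siTead1/4 level was 2.92% of control, with a log2 fold change of -5.09 ± 0.62 (edgeR adjusted p = 0.0394). Padi2, which converts protein arginine to citrulline (chr4:140462259-140508501, plus strand), stood at 77.0 and 145.0 CPM against 8.55 and 12.9. Here the control libraries were far apart and the groups still well separated (log2 fold change -3.37 ± 0.42, edgeR adjusted p = 0.0394). Atp6v1c2, a subunit of the proton pump of acidic vesicles (chr12:17291527-17336165, minus strand), stood at 22.0 and 21.4 CPM against 3.23 and 3.08. Its replicates were the closest of the 3 (log2 fold change -2.78 ± 0.37, edgeR adjusted p = 0.0467). The gene overlaps the abundant Pdia6 on the other strand, and the library kit did not mark strand, so reads of the shared stretch cannot be told apart.

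Both genes called up encode surface proteins. Itga4, the alpha-4 integrin that binds Vcam1 and fibronectin (chr2:79095583-79173280, plus strand), stood at 16.3 and 18.8 CPM in siControl cells and at 96.4 and 100.6 in siTead1/4 cells. The siTead1/4 mean was 5.61 times the control mean, with a log2 fold change of 2.49 ± 0.34 (edgeR adjusted p = 0.0494). Lingo1, a leucine-rich repeat membrane protein best known from neurons (chr9:56466282-56533060, minus strand), stood at 1.43 and 2.09 CPM against 8.58 and 10.4. It was 5.39 times higher, with a log2 fold change of 2.44 ± 0.32 (edgeR adjusted p = 0.0449).

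**Figure D1:**
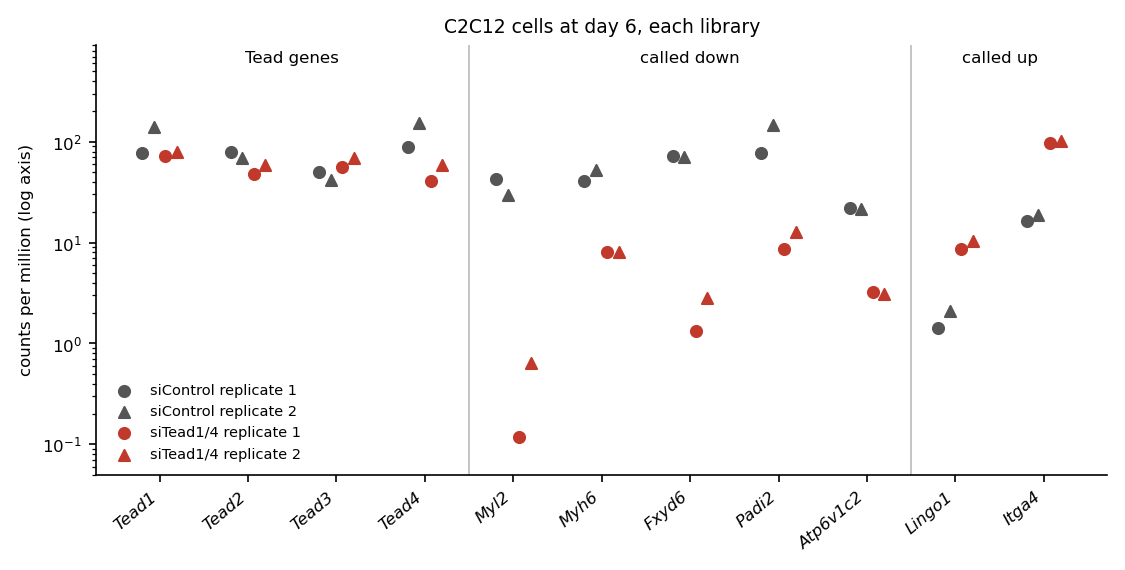
CPM (log axis) of the 4 Tead genes and the 7 called genes in each C2C12 library at day 6; grey marks siControl, red siTead1/4, circles replicate 1 and triangles replicate 2. The groups are apart for the 7 called genes, while for Tead1 the siTead1/4 libraries at 72.5 and 79.4 meet the lower siControl library at 78.1.

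The number of calls depended on each of the 4 libraries and on the tool. Without siControl replicate 1 or without siTead1/4 replicate 2, none was called up and 2 were called down, of which 1 was among the 7. Without siControl replicate 2 or without siTead1/4 replicate 1, no gene was called by edgeR (1009 and 792 genes with unadjusted p under 0.05). DESeq2 on the same 12 C2C12 libraries called 35 genes up and 107 down, 0.215% and 0.657% of the genes it tested. These 142 genes include all 7 called by edgeR, and each of the 142 had an unadjusted edgeR p under 0.05 with the same sign and groups that did not overlap. Both tools were fitted to the same 12 libraries, so these matches are not independent. The largest edgeR adjusted p among the 142 was 0.529. Genes called by DESeq2 alone are named as such from here on.

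Genes just past the edgeR threshold included several with large differences. Cyp26b1, which breaks down retinoic acid, stood at 23.3 and 27.6 CPM in siControl cells and at 2.16 and 3.91 in siTead1/4 cells (log2 fold change -3.06 ± 0.47, adjusted p = 0.0825 by edgeR and 4.05e-08 by DESeq2). Lctl, a lactase-like protein, stood at 6.06 and 5.61 CPM against 0.325 and 0.48 (-3.83 ± 0.56, adjusted p = 0.0641 by edgeR). Cd24a, a surface sialoglycoprotein, stood at 19.6 and 43.4 CPM against 5.56 and 6.54 (-2.38 ± 0.35, edgeR adjusted p = 0.0641). The glycosyltransferase B4galnt3 and the little described 1600029D21Rik, 2410137F16Rik and 1700008I05Rik complete the 12 lowest p-values on the falling side, with log2 fold changes of -3.07, -3.05, -2.02 and -2.15. All 7 of these genes were called down by DESeq2. Lctl overlaps Zwilch on the other strand, so their reads cannot be told apart. Other genes named below share this limit. Among them are Tmem54 (overlapping Hpca), Myh7b (Trpc4ap), Crim1 (Fez2), Ccnd1 (Oraov1) and Nefl (Nefm).

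On the rising side, the 10 genes after Lingo1 and Itga4 had log2 fold changes between 1.33 (Tgfb2) and 3.74 (Tmem54). Tmem54 had 2 and 1 reads in the siControl libraries, so its mean of the siTead1/4 libraries was at least 6.7-fold higher than a floor of 3 reads per library. Dcx, doublecortin, a microtubule protein of migrating neurons, stood at 1.6 and 1.44 CPM in siControl cells and at 16.3 and 8.16 in siTead1/4 cells (log2 fold change 3.00 ± 0.57, adjusted p = 0.12 by edgeR and 0.000121 by DESeq2). B3galt2, another glycosyltransferase, stood at 2.48 and 1.3 against 15.4 and 9.39 CPM (2.69 ± 0.53, adjusted p = 0.141 by edgeR), and it overlaps Cdc73 on the other strand. The collagen gene Col19a1 (2.29), the matrix protein gene Smoc1 (1.83), Fam107a (1.66), Hgfac (2.01), Arhgap25 (3.06) and 6330403A02Rik (2.39) complete the set. DESeq2 called each of the 10 up except Tmem54.

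Most genes of the contractile apparatus lay lower in siTead1/4 cells, and few were called. Of 101 tested genes of the myosins, the thin filament, the Z-disc and M-band, and excitation-contraction coupling, 2 were called down by edgeR (Myl2 and Myh6), 10 by DESeq2 and none was called up by either. Both siTead1/4 libraries lay under both siControl libraries for 69 of the 101 (68.3%, against 20.5% of all tested genes) and over them for 4. The median log2 fold change of the 101 was -0.65, against 0.01 over all tested genes. The medians moved with both siTead1/4 libraries. Without replicate 1 they were -0.58 for the myosins, -0.49 for the thin filament, -0.29 for the Z-disc list and -0.39 for coupling, and without replicate 2 they were -1.40, -0.98, -1.15 and -0.87. In bulk RNA, fewer cells of a type and less RNA per cell cannot be told apart.

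Among the 17 tested myosin genes, the median was -0.87 and 10 lay lower in both siTead1/4 libraries (20.5% over all genes). Besides Myl2 and Myh6, DESeq2 called Myh7, Myh3, Myh7b and Myl6b down. Myh7, the slow and beta cardiac heavy chain, stood at 193.4 and 290.8 CPM in siControl cells and at 44.1 and 45.7 in siTead1/4 cells (log2 fold change -2.43 ± 0.47, adjusted p = 0.138 by edgeR and 0.000185 by DESeq2). Myh3, the embryonic heavy chain and the most abundant of these, stood at 4450 and 7289 CPM against 1488 and 2714 (-1.48 ± 0.44, adjusted p = 0.401 by edgeR and 0.0457 by DESeq2). Per kilobase of transcript, the mean siControl levels were 954.3 CPM per kb for Myh3, 38 for Myh7, 7.54 for Myh6 and 5.84 for Myh7b. Myl6b, an essential light chain, stood at 196.8 and 266.2 CPM against 36.3 and 82.6.

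The fast heavy chains overlapped, and the perinatal chain did not. Myh8, the perinatal form, stood at 180.9 and 581.7 CPM in siControl cells and at 23.4 and 133.8 in siTead1/4 cells, with a log2 fold change of -2.28 ± 0.90 and no call by either tool. Myh1 (1449 and 2731 against 845.2 and 2447 CPM) and Myh2 (43.4 and 92.1 against 25.8 and 78.6 CPM) overlapped. Myh4, the IIb heavy chain, was highest in siTead1/4 replicate 2, at 1141 CPM, against 405.8 in the other siTead1/4 library and 417.1 and 592.8 in siControl cells. In each of these 4 genes replicate 2 was the higher library of its siRNA.

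No thin filament gene was called by either tool. Of the 19 tested, 13 lay lower in both siTead1/4 libraries and 2 higher (20.5% and 19.1% over all genes), and the median was -0.62. Tnnt2, the embryonic and cardiac troponin T, stood at 2171 and 2246 CPM in siControl cells against 1022 and 1489 in siTead1/4 cells. Tnni1, the slow troponin I, stood at 2712 and 2522 against 1088 and 1803, and Tnnt3, the fast troponin T, at 2148 and 2113 against 936.1 and 1414. Acta1, skeletal actin, stood at 5377 and 5261 CPM in siControl cells, and its siTead1/4 libraries lay on either side, at 3461 and 7204 (log2 fold change 0.00 ± 0.55). Actc1, the cardiac actin that myotubes also use, overlapped as well.

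Z-disc, M-band and titin genes had a median of -0.67 over 36 tested members, 24 of them lower in both siTead1/4 libraries (20.5% over all genes). DESeq2 called 2 of them down, both of stretch-sensing proteins. Ankrd2 stood at 43.1 and 42.4 CPM in siControl cells and at 8.55 and 15.9 in siTead1/4 cells (adjusted p = 0.155 by edgeR and 0.00318 by DESeq2), and Csrp3 at 127.9 and 101.7 against 29.6 and 46.9 (0.32 and 0.039). Actn3, the fast fibre actinin, stood at 825.2 and 1071 against 338.2 and 566.7 CPM without a call.

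For excitation-contraction coupling, 22 of 29 tested members were lower in both siTead1/4 libraries (20.5% over all genes) and the median was -0.64. Casq1, which stores calcium in the sarcoplasmic reticulum, stood at 233 and 273.4 CPM in siControl cells and at 49.6 and 64.4 in siTead1/4 cells (log2 fold change -2.15 ± 0.43, adjusted p = 0.143 by edgeR and 0.000411 by DESeq2). Sypl2, a protein of the triad junction, stood at 3.96 and 5.67 against 0.651 and 1.39 CPM and was called down by DESeq2 alone. Cav3, the muscle caveolin, stood at 164.5 and 153.6 CPM against 55.8 and 93.4, and Camk2a at 140.5 and 193.8 against 54.6 and 85.4. Neither was called by either tool, though neither overlapped.

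**Figure D2:**
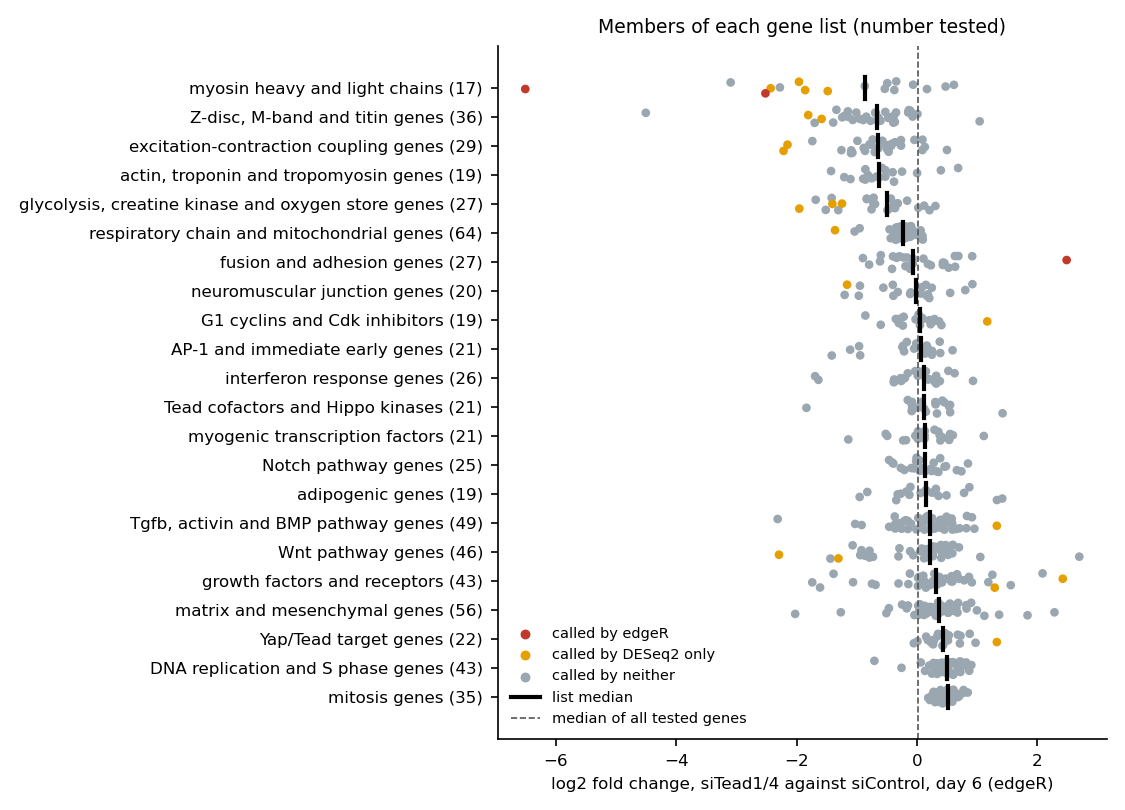
Log2 fold change at day 6 (siTead1/4 against siControl, edgeR) of every tested member of 22 gene lists, with the number tested in parentheses; black bars are list medians and the dashed line is the median of all tested genes, 0.01. Red members were called by edgeR and orange ones by DESeq2 only, and the list medians run from -0.87 for the myosins to 0.51 for mitosis genes.

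Genes of energy metabolism also lay mostly lower. Of 27 tested genes of glycolysis, glycogen, creatine kinase and oxygen storage, 19 were lower in both siTead1/4 libraries and 1 was higher (20.5% and 19.1% over all genes), with a median of -0.49 that was -0.33 without siTead1/4 replicate 1 and -0.94 without replicate 2. None was called by edgeR, and DESeq2 called 3 down. Pgam2, the muscle phosphoglycerate mutase, stood at 140.0 and 148.0 CPM against 39.1 and 69.5 (adjusted p = 0.149 by edgeR and 0.00558 by DESeq2). Gys1, muscle glycogen synthase, stood at 265.5 and 310.7 against 90.8 and 152.3, and Ckmt2, the mitochondrial creatine kinase of muscle, at 1.9 and 2.94 against 0.621 and 0.617.

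Of 64 tested genes of the respiratory chain and mitochondria, 39 were lower in both siTead1/4 libraries and none was higher (20.5% and 19.1% over all genes). Their median was -0.23 (-0.15 without siTead1/4 replicate 1). Cox8b, a muscle isoform of a cytochrome oxidase subunit, was the 1 gene of that list called by DESeq2, at 28.1 and 17.3 CPM against 8.7 and 8.96. The log2 fold changes of the list ran from -1.36 (Cox8b) to 0.10.

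The known targets of Yap and Tead lay mostly on the higher side. Of 22 tested Yap and Tead target genes, 12 were higher in both siTead1/4 libraries (19.1% over all genes), none was lower in both, and the median was 0.43. EdgeR called none of them and DESeq2 called Tgfb2 up. Tgfb2 stood at 46.7 and 56.2 CPM in siControl cells and at 121.5 and 136.7 in siTead1/4 cells (log2 fold change 1.33 ± 0.27, adjusted p = 0.143 by edgeR and 0.00314 by DESeq2). Ptpn14 (52.3 and 65.5 against 106.9 and 109.5 CPM), Jub (59.0 and 66.3 against 96.3 and 104.1) and Crim1 (14.9 and 13.9 against 32.3 and 24.3) were separated without a call. Ctgf, the best known target, overlapped, at 64.4 and 135.5 against 109 and 145.8 CPM. Lats2 and Amotl2, which are pathway inhibitors and also targets, were higher in both siTead1/4 libraries, with log2 fold changes of 0.31 and 0.53.

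In the list of growth factors and receptors, which does not hold Tgfb2, DESeq2 called 2 genes up. Edn1, endothelin-1, stood at 1.27 and 1.3 CPM against 9.14 and 4.68 (log2 fold change 2.42 ± 0.71, adjusted p = 0.401 by edgeR and 0.0178 by DESeq2), and Fgfbp1, which releases fibroblast growth factors from the matrix, at 16.7 and 23.0 against 35.7 and 61.4. Of 43 tested genes of growth factors and receptors, 12 were higher and 6 lower in both siTead1/4 libraries, with a median of 0.32 (0.21 without siTead1/4 replicate 2). Over all genes tested, 19.1% were higher and 20.5% lower. Tgfa (2.09), Pdgfb (1.19), Vegfc (0.86) and Igfbp7 (0.79) were higher in both libraries without a call. Of 49 tested Tgfb, activin and BMP pathway genes, 18 were higher in both siTead1/4 libraries and 6 lower, with a median of 0.21. Grem1, a BMP antagonist, stood at 326.2 and 301.7 CPM against 597.1 and 586.3, and Fst, the activin and myostatin antagonist, at 300.5 and 506.6 against 130.2 and 266.1. Grem1 passed the DESeq2 p threshold but not the fold limit.

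The 56 tested matrix and mesenchymal genes had a median of 0.36 (0.58 without siControl replicate 2). Of the 56, 21 were higher and 1 lower in both siTead1/4 libraries, against 19.1% and 20.5% of all genes. Postn, a matrix protein of mesenchymal cells, was high in 1 library. It stood at 2256 CPM in siTead1/4 replicate 1 and at 365.6 in replicate 2, against 439.5 and 293.7 in siControl cells. The collagen Col5a2 was more even, at 914.1 and 1122 against 1756 and 1401 CPM. No gene of this list was called by either tool.

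Levels of mitosis genes differed more between replicates than between siRNAs. All 35 mitosis genes had a positive log2 fold change, with a median of 0.51, yet the groups overlapped in each of the 35. Top2a, a topoisomerase of dividing cells, stood at 28.5 and 148.3 CPM in siControl replicates 1 and 2 and at 40 and 261.9 in siTead1/4 replicates 1 and 2. Cdk1 stood at 19.5 and 46.4 against 23.3 and 75.5 CPM. The summed mitosis genes were 386.7 and 1463 CPM in siControl cells and 416.8 and 2249 in siTead1/4 cells, so replicate 2 was the higher library with either siRNA. Within each replicate number the siTead1/4 sum was the higher. Leaving out siTead1/4 replicate 2 turned the list's median to -1.21, and leaving out siControl replicate 2 gave 1.73. Each of these fits leaves the replicate numbers uneven between the siRNAs at day 6, so its median also holds the difference between replicates. Of 43 genes of DNA replication and S phase, 38 overlapped, 1 was lower and 4 were higher in both siTead1/4 libraries (20.5% and 19.1% over all genes for the last 2). Their median of 0.51 likewise ran from -0.32 to 1.01 as single libraries were left out.

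Among regulators of the exit from the cycle, Ccnd1, cyclin D1, stood at 11.0 and 13.2 CPM in siControl cells and at 23.5 and 30.9 in siTead1/4 cells (log2 fold change 1.17 ± 0.26, adjusted p = 0.199 by edgeR and 0.0117 by DESeq2). The gene overlaps Oraov1 on the other strand, so reads of the shared stretch cannot be told apart. Cdkn1a, the inhibitor p21 that rises as myoblasts stop dividing, stood at 2405 and 2418 against 1127 and 1535 CPM, and Ccnd3 at 570.9 and 560.7 against 298.4 and 447.6. Neither was called. The 19 tested members of that list had a median of 0.05 (-0.09 without siControl replicate 1). Of the 19, 4 were lower and 3 higher in both siTead1/4 libraries, near the shares of 20.5% and 19.1% over all genes.

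**Figure D3:**
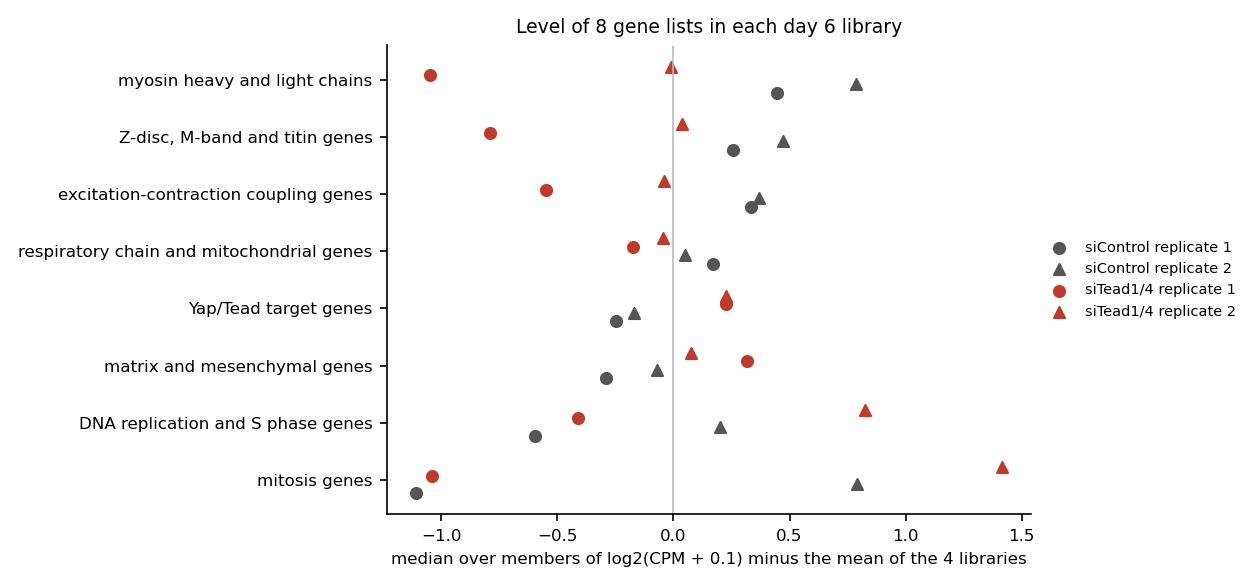
Level of 8 gene lists in each of the 4 day 6 libraries, as the median over tested members of log2(CPM + 0.1) minus the mean of the 4 libraries; grey marks siControl, red siTead1/4, circles replicate 1 and triangles replicate 2. For the myosins siTead1/4 replicate 1 lies at -1.05 and replicate 2 at -0.01, and for mitosis genes replicate 2 lies above replicate 1 with either siRNA.

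The myogenic regulators were not called. Myod1 stood at 179.9 and 188.7 CPM in siControl cells and at 193.5 and 210.2 in siTead1/4 cells, and Myog at 738.2 and 1013 against 703.5 and 791.4. Mef2c, a partner of both in activating muscle genes, stood at 700.3 and 931.1 against 264.3 and 475.8 CPM (log2 fold change -1.14 ± 0.37, adjusted p = 0.451 by edgeR). Mef2d was lower in both siTead1/4 libraries by less (-0.49), and Pax7, of satellite cells, was higher (17.9 and 26.4 against 57.8 and 37.7 CPM). Of the 21 tested members none was called by either tool. In both siTead1/4 libraries 9 were higher and 3 lower, against 19.1% and 20.5% of all genes. The median was 0.13 (0.06 without siTead1/4 replicate 2 and 0.23 without siControl replicate 1).

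Fusion and adhesion genes were mixed. Itga4 was the single call among 27 tested, and the median was -0.07 (-0.01 without siControl replicate 2). Of the 27, 8 were higher and 6 lower in both siTead1/4 libraries, against 19.1% and 20.5% of all genes. Gm7325, which encodes the fusion protein myomixer, stood at 139.3 and 99.6 CPM in siControl cells and at 76.6 and 51.8 in siTead1/4 cells. Vcam1, a ligand of the alpha-4 integrin, stood at 86.9 and 91.0 against 171.1 and 105.3 CPM. At the neuromuscular junction, DESeq2 called Colq, the collagen tail of acetylcholinesterase, down (12.8 and 14.3 against 6.36 and 5.78 CPM, adjusted p = 0.0034), and the median of 20 tested genes was -0.02 (-0.32 without siTead1/4 replicate 2 and 0.08 without replicate 1).

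In the signalling lists, Wnt11 stood at 5.67 and 9.44 CPM in siControl cells and at 1.07 and 1.99 in siTead1/4 cells (log2 fold change -2.29 ± 0.43, adjusted p = 0.12 by edgeR and 0.000321 by DESeq2). The Wnt receptor gene Fzd9 stood at 5.05 and 4.68 against 1.95 and 1.99 CPM, and was also called down by DESeq2 alone. The Wnt antagonist Sfrp2 was higher, at 3.01 and 2.39 against 28.1 and 7.22 CPM, without a call. Over 46 tested Wnt genes the median was 0.22 (0.09 without siControl replicate 1). Notch pathway genes had a median of 0.14 over 25 tested (0.06 without siControl replicate 1 and 0.22 without siControl replicate 2), and Notch1 (32.5 and 50.4 against 32.6 and 47.7 CPM) and Hey1 (7.59 and 10.3 against 9.05 and 8.73) overlapped, whereas Dll1 and Notch3 were higher in both siTead1/4 libraries (0.85 and 0.39). Hey2 had at most 3 reads in any of the 4 libraries.

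Other genes that the study names in its text or lists in its supplementary files also showed no call. E2f8, Fhl1, Sox11 and Mapk6 overlapped, with log2 fold changes of -0.26, -0.11, -0.03 and 0.02, and Chek2 was higher in both siTead1/4 libraries (0.60). Nkd1, with 7 to 16 reads in each library, was not tested. Adipogenic, interferon response and AP-1 lists had medians of 0.15, 0.11 and 0.07, over 19, 26 and 21 tested genes, and no member was called by either tool. The sign of each of these medians turned when 1 library was left out, to -0.12 and -0.10 without siTead1/4 replicate 1 for the first 2 lists and to -0.04 without siTead1/4 replicate 2 for the AP-1 list.

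Markers of other cell types were low or mixed. Summed endothelial markers lay between 2.95 and 4.27 CPM over the 4 libraries, macrophage markers between 4.31 and 7.51, and adipocyte markers between 0.0229 and 0.296. Markers with no read in any of the 4 libraries were 1 of 9 endothelial (Emcn), 2 of 9 macrophage (Emr1, C1qa), 3 of 6 adipocyte (Plin1, Lep, Cfd), 1 of 9 Schwann cell (Foxd3) and 1 of 12 fibroblast markers (Tcf21). The others had reads, up to 95 for the endothelial marker Vwf and 274 for the macrophage marker Cd14 in a library. Fibroblast markers summed to 3566 and 3626 CPM in siControl cells and to 4691 and 2983 in siTead1/4 cells, and Ly6a among them was called down by DESeq2 (199.6 and 43.9 against 22.9 and 17.4 CPM). Schwann cell markers summed to between 240.6 and 402.3 CPM. Neuron markers summed to between 104 and 146.8 CPM, not counting Map2, which the data hold under its older symbol Mtap2 (log2 fold change -0.93). Of the 6 tested, 5 had a negative log2 fold change and 1 a positive one, with a median of -1.06. DESeq2 called Dcx up and Nefl down. Nefl, a neurofilament, stood at 0.495 and 0.615 CPM in siControl cells and had 1 and 2 reads in siTead1/4 cells, so it was at least 7.06-fold lower against a floor of 3 reads per library. The part of other cell types in the results above was not tested.

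The day 6 effect was also set beside the genes that control cells turn on or off during differentiation. At day 3 against day 0 in siControl cells, 2450 of the tested genes were called up (16% of 15303) and 1940 down (12.7%). These libraries are not in the day 6 contrast, but the filter, scaling and spread of the day 6 test were fitted with them. Of the 2450, 40.1% were lower and 13% higher in both siTead1/4 libraries at day 6, with a median log2 fold change of -0.23. Of the 1940, 8.04% were lower and 23.8% higher, with a median of 0.19. Of the 10913 genes called in neither direction, 18.3% were lower and 19.7% higher, with a median of 0.01. The 5 genes called down at day 6 and Itga4 were among the 2450.

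Most genes called at day 3, in libraries of its own, lay on the same side at day 6. At day 3 siTead1/4 had 29 genes called up (0.19% of those tested) and 166 called down (1.08%), and all 7 genes called at day 6 were among them. Calls at both days came from the same fit, which shares each gene's spread over the days, so they are not independent. With the 4 day 6 libraries alone, 0 of the 7 were called. Of the 166, 156 lay lower in both siTead1/4 libraries at day 6 (94.0%, against 20.5% of all genes), and of the 29, 24 lay higher (82.8%). The exceptions that lay on the opposite side in both libraries were Defb42 and Itgb1bp3 among the 166 and Foxred2 and Tlr2 among the 29. The median effect of the 166 was -2.23 at day 3, the day by which they were chosen, and -1.30 at day 6. For the 29 it was 2.02 at day 3 and 0.91 at day 6. Of the genes called at day 0 (21 up, 0.137%, and 46 down, 0.301%), none was called at day 6, and 57.1% of the 21 were higher and 52.2% of the 46 lower in both siTead1/4 libraries.

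**Figure D4:**
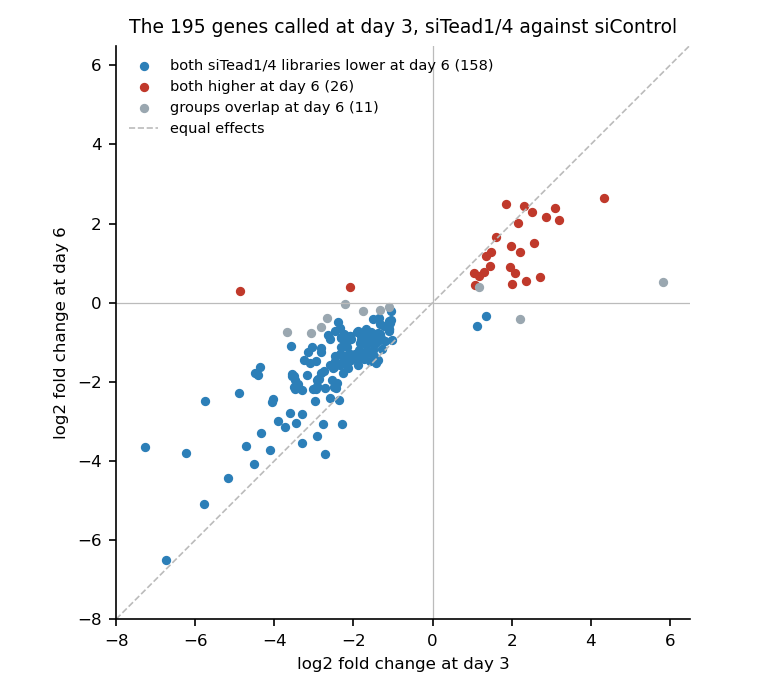
Log2 fold change (siTead1/4 against siControl) at day 3 on the horizontal axis and day 6 on the vertical axis for the 195 genes called at day 3, which were chosen by their day 3 values; blue genes are lower and red genes higher in both siTead1/4 libraries at day 6, and grey genes overlap. Of the 166 genes called down at day 3, 156 are lower in both siTead1/4 libraries at day 6.

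No gene was called for a difference between the effects at day 6 and day 3 (0% of 15303 tested, 314 with an unadjusted p under 0.05, edgeR). The 5 smallest p-values belonged to Cd24a, Itgb1bp3, Itgb1bp2, Foxred2 and Gpr56. Itgb1bp2, which encodes the muscle chaperone melusin, stood at 180 and 176.5 CPM in siControl cells and at 38.5 and 37.5 in siTead1/4 cells at day 3. At day 6 it stood at 197.5 and 216.4 against 105.7 and 134.2, so the gap was smaller (difference of the log2 fold changes 1.44 ± 0.25, edgeR adjusted p = 0.955). Itgb1bp3, a muscle nicotinamide riboside kinase, stood at 13.2 and 11.9 against 2.64 and 3.29 CPM at day 3 and at 8.56 and 10.8 against 11.1 and 14.4 at day 6 (difference 2.48 ± 0.38, edgeR adjusted p = 0.491). Cd24a went the other way, at 6.5 and 6.81 against 9.84 and 14.9 CPM at day 3 and 19.6 and 43.4 against 5.56 and 6.54 at day 6 (difference -3.27 ± 0.49, edgeR adjusted p = 0.491). Gpr56 and Foxred2 had differences of 2.16 and -1.73.

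In PMs at day 6 the same siRNAs had 43 genes called up (0.254%) and 17 called down (0.1%), and of the 7 genes called in C2C12 cells Lingo1 was also called there. Lingo1 had a log2 fold change of 1.64 ± 0.30 in PMs (edgeR adjusted p = 0.0216), and the difference between the cell types was 0.81 ± 0.44. The PMs come from another strain than the C2C12 line, so cell type and strain cannot be told apart. A difference between the cell types was called for 6 of 16926 genes (0.0354%), with 916 at an unadjusted p under 0.05 (edgeR, 24 libraries). On the scale of this fit, Myl2 stood at 41.9 and 28.8 CPM against 0.115 and 0.62 in C2C12 cells and at 21.4 and 27.1 against 5.83 and 9.43 in PMs. It was thus lower with siTead1/4 in both, and by more in C2C12 cells (difference -4.84 ± 0.67, edgeR adjusted p = 0.0184).

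Fxyd6 was more abundant in PMs, at 537.6 and 682.2 CPM in siControl cells and 638.2 and 778.6 in siTead1/4 cells, where the groups overlapped (difference -5.30 ± 0.61, edgeR adjusted p = 0.0024). Cyp26b1 lay at 1.07 and 1.27 against 3.2 and 1.24 CPM in PMs (difference -3.99 ± 0.65, edgeR adjusted p = 0.0393). Tceal5 stood at 19.6 and 29.0 against 33.1 and 45.8 CPM in PMs, and at 4.65 and 5.05 against 1.84 and 1.77 in C2C12 cells, which are opposite directions (difference -2.12 ± 0.33, edgeR adjusted p = 0.031). 9530026P05Rik, with 7 to 77 reads in each C2C12 library and 12 to 45 in each PM library, also had opposite directions (difference -4.30 ± 0.63, edgeR adjusted p = 0.0184).

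Nos1, the neuronal nitric oxide synthase that muscle also makes, was the 1 gene with a higher effect in C2C12 cells. In PMs it stood at 46 and 82.9 CPM in siControl cells and at 2.86 and 6.98 in siTead1/4 cells. In C2C12 cells it stood at 25.7 and 16.8 against 97.1 and 25.3 CPM, where the groups overlapped and replicate 1 of siTead1/4 held the high value (difference 5.24 ± 0.87, edgeR adjusted p = 0.0429). Nos1 was not called without siControl replicate 1, siControl replicate 2 or siTead1/4 replicate 1 of the C2C12 cells (adjusted p = 0.172, 0.235 and 0.2, edgeR). The myosins had a median of -0.87 in C2C12 cells and of -0.49 in PMs, and the Z-disc list of -0.67 and -0.23, a difference of medians that was not tested.

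**Figure D5:**
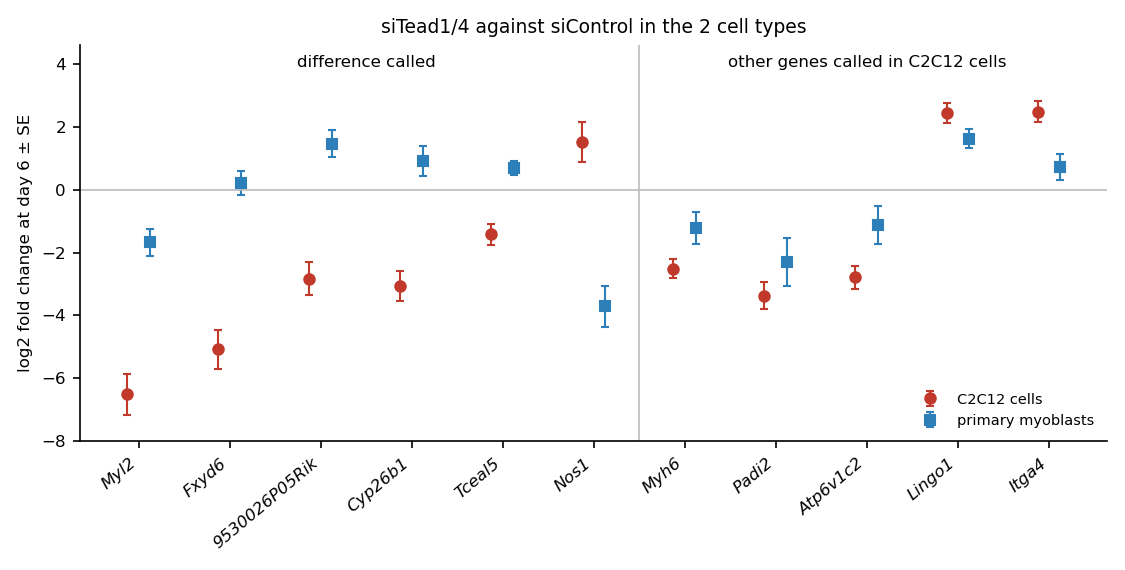
Log2 fold change at day 6 (siTead1/4 against siControl) with its standard error in C2C12 cells (red circles) and primary myoblasts (blue squares), n = 2 libraries for each siRNA, for the 6 genes called for a difference between the cell types and the other 5 genes called in C2C12 cells. Fxyd6, Cyp26b1, Tceal5 and 9530026P05Rik lie below 0 in C2C12 cells and above 0 in PMs, and Nos1 lies the other way.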

How the data were processed

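Poly-A RNA of 24 samples was sequenced with an unstranded kit (TruSeq RNA v2). Reads were aligned to mm9 by the authors, who deposited unnormalized counts for 28109 genes. The submitters' processing notes name CASAVA 1.8.2, TopHat2 2.0.10, Bowtie2 2.1.0, HTSeq 0.6.1 and DESeq2 1.8.1. The table's normalized values and its columns of the authors' own comparisons (fold changes and p-values) were not used, nor were 36 columns of 12 libraries that are not among the listed samples.

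The counts of the 12 C2C12 libraries were fitted in R 4.3.3 with edgeR 4.0.16 (quasi-likelihood, TMM scaling, low genes removed by filterByExpr, 6 group means). Calls needed an adjusted p (Benjamini-Hochberg) below 0.05 together with a log2 fold change above 1 or below -1. The difference from day 3 used the same fit, and the difference from PMs a fit of all 24 libraries with 12 group means. CPM values follow the same scaling. DESeq2 1.42.0 without shrinkage was run on the 12 libraries as a second tool, and limma 3.58.1 (voom) as an alternative. The labels call the replicates biological. Replicates of a group differed beyond counting noise (chi-square per gene 67.9 for siControl and 113 for siTead1/4 at day 6). The models were tested on simulated data with known changes.

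The named genes were the Tead genes and their cofactors, the 12 rises and 12 falls with the smallest p, genes that the study names in its text or lists in its supplementary files (lists partly chosen on these libraries), the called members of each list with up to 5 others of smallest p, and the 5 smallest p in each difference test (192 genes, of which the most telling are described). Members and lists were chosen with earlier results of these data known, and lists are described by counts and medians with no set test. Tlr2, Defb42 and the cell type markers named for their reads stand outside this rule and were named after their values were seen. Promoter sequences were matched by symbol in a RefSeq table on GRCm38.p6, another build than mm9.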

Additional observations from a re-analysis of the deposited data

Results flagged for a closer look

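The siTead1/4 effect at day 6 differed between C2C12 cells and PMs for 6 genes by the test of the difference itself (edgeR, 24 libraries, adjusted p under 0.05). The difference of the log2 fold changes, C2C12 cells minus PMs, was -5.30 for Fxyd6, -4.84 for Myl2, -4.30 for 9530026P05Rik, -2.12 for Tceal5, -3.99 for Cyp26b1 and 5.24 for Nos1. Myl2 was lower with siTead1/4 in both cell types, and the fitted effects of the other 5 had opposite signs. For 3 of these 5 the groups overlapped in one cell type, Fxyd6 and Cyp26b1 in PMs and Nos1 in C2C12 cells. The test for a single library far from its group needs at least 4 libraries and was not applied to groups of 2.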

How the results depend on the processing

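At day 6 the main counts were 2 genes up and 5 down. Up and down, DESeq2 with shrunken fold changes on 24 libraries called 61 and 160, DESeq2 without shrinkage 35 and 107, edgeR on all 24 libraries 22 and 66, limma voom 4 and 21, RLE scaling 1 and 5, and no filter on low counts 143 and 244. No gene was called (0 and 0) with at least 10 counts required in every library (706 genes with an unadjusted p under 0.05) or with the 4 day 6 libraries alone (1279). Leaving out 1 library gave 0 up and between 0 and 2 down. The replicate block gave 3 and 9. Deviations of same-numbered libraries correlated at 0.52 between the siRNAs at day 6. The other correlations with a day 6 group ran from 0.06 to 0.39, except -0.17 between siControl at day 6 and siTead1/4 at day 0. The main fit did not take the numbers to pair the samples, so a replicate effect shared by the siRNAs at day 6 enters only the block. For the difference from day 3, DESeq2 called 5 up and 3 down, 24 libraries 1 and 1, no filter 63 and 95, and leaving out 1 library between 0 and 1 down. For the difference from PMs, DESeq2 called 12 up and 48 down, 10 counts in every library 0 and 0, no filter 38 and 108, the replicate block 6 and 28, and leaving out 1 library between 0 and 4 up and between 1 and 17 down. The causes were not tested. Of the 7 genes called at day 6, all 7 were also called by DESeq2, limma voom and the replicate block, 6 with RLE scaling, 6 on 24 libraries, and 1 or 0 as single libraries were left out.

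The sign of the day 6 log2 fold change turned for several genes that were not called. With limma voom it was 0.011 for Gpr56, 0.033 for Hey1 and -0.10 for Acta1. Hey1 had 0.0072 with the replicate block, and Acta1 had -0.0015 with DESeq2, -0.0051 with RLE scaling and -0.0023 on 24 libraries. As single libraries were left out, the value ran from -0.0030 to 2.61 for Postn, -0.50 to 1.34 for Cdk1, -1.15 to 2.40 for Top2a, -1.40 to 0.26 for Myh2, -0.88 to 0.17 for E2f8, -1.31 to 0.23 for Myh1, -0.32 to 1.18 for Myh4, -0.69 to 0.088 for Actc1, -0.20 to 0.037 for Wwtr1, -0.090 to 0.98 for Ctgf, -0.44 to 0.011 for Myog, -0.50 to 0.20 for Fhl1, -0.36 to 0.35 for Gpr56, -0.35 to 0.30 for Notch1, -0.48 to 0.31 for Sox11, -0.19 to 0.20 for Mapk6, -0.21 to 0.22 for Hey1, -0.15 to 1.05 for Cd14 and -0.63 to 0.44 for Acta1.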
